A study of Mus musculus with 4 samples.

Results

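The solute carrier genes of mouse embryonic stem cells (mESCs) were examined after inhibition of protein kinase C (PKC). Solute carrier genes were taken as the protein-coding genes whose symbol starts with Slc or Slco and a number, and 46 of the 1577 genes listed in the deposited table met this rule. RNA-sequencing was carried out on 46C cells, an mESC line that carries a green fluorescent protein reporter in the Sox1 locus, cultured in serum-containing medium. The NT group (2 samples) received control medium and the Go6983 group (2 samples) received 5 μM Go6983, a pan-PKC inhibitor, for 24 h. All samples are of 1 line, no genotype or other agent is named as separating the groups, and whether leukemia inhibitory factor was present is not stated in the labels. The paper calls NT no treatment, and whether these NT samples received the solvent of Go6983 is not stated there. Nothing in the labels says that the samples of a group came from separate cultures, so a p-value measures only the spread between these samples, which may be technical.

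The table had been selected for change before it was deposited. The smallest absolute difference between the group means was 1.00 on the log2 scale, and 100% of the listed genes had a p of 0.05 or less from the authors. Every listed solute carrier gene therefore differs between NT and Go6983 by at least about 2-fold by construction, so the fold changes and limma p-values below describe these genes and are not independent evidence that they changed. Solute carrier genes outside the table are not analysed here, and nothing is said of their level.

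Solute carriers are membrane proteins that move nutrients, ions, metabolites, vitamins and drugs across the plasma membrane and the membranes of organelles. Most are secondary active transporters or facilitators: they let a substrate run down its own gradient or couple it to the sodium, proton or chloride gradient that ion pumps maintain. A family shares a number and usually a substrate type, and a few members are not transporters themselves but partner chains that carry a transporter to the membrane. In mESCs, amino acid, glucose and vitamin uptake feeds rapid growth and supplies substrates for chromatin modification.

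Promoter sequence could be set beside the expression values for 38 of the 46 members, 28 higher and 10 lower with Go6983, from the RefSeq annotation of GRCm38.p6. The 250 bases upstream of the start site are shown for 4 members, 5′ to 3′ on the gene's strand with every CpG in capitals. They are Slc38a2, the most abundant member, Slc15a1, the most abundant of those that rose, Slc35d3, the member with the largest fall among those reaching 50 normalized counts, and Slc3a1, which holds matches to both AP-1 and TATA box letters.

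Slc38a2 (chr15:96699729-96699978, minus strand): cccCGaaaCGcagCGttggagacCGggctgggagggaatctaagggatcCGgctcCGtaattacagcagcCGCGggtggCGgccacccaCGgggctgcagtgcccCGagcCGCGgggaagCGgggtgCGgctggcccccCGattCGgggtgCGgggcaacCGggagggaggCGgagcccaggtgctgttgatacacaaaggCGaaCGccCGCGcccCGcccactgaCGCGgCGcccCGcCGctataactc

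Slc15a1 (chr14:121505255-121505504, minus strand): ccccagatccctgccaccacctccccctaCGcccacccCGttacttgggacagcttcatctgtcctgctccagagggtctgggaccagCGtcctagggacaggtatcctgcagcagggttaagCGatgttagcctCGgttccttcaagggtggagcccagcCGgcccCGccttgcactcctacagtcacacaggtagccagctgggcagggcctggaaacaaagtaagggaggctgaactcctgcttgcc

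Slc35d3 (chr10:19851460-19851709, minus strand): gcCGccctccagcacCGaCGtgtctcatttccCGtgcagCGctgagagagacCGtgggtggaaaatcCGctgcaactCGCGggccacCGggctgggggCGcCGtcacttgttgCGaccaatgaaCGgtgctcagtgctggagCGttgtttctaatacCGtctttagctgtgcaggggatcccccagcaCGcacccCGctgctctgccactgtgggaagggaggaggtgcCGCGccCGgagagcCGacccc

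Slc3a1 (chr17:85028097-85028346, plus strand): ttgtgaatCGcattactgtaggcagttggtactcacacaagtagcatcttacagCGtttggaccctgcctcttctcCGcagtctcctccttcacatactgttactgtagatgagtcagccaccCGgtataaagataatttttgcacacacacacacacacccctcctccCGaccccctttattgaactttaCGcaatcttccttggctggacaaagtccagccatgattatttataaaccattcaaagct

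The Slc38a2 and Slc35d3 promoters were CpG-rich, with 30 CpG in 72% GC and 22 CpG in 65.6% GC, whereas the Slc15a1 window held 7 CpG in 62% GC and the Slc3a1 window 6 in 45.6% GC. For medians, a gene with several windows was given its highest GC and its highest CpG count. The median over the 38 members was 56.6% GC and 8 CpG, against 52.8% and 6 over 27025 genes with a promoter and 58.4% and 10 over the other listed genes. Members that were lower with Go6983 had a median of 61.4% GC on this basis and those that were higher 55.2%. These are descriptions of base composition, with no test.

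Motif matches on both strands were few. The letters TGANTCA take in the AP-1 site TGA(C/G)TCA, the response element for phorbol esters that activate PKC. They also allow A or T at the middle base, so the shares are not of that element alone. A match to TGANTCA occurred in 2 of the 38 members (5.26%, against 7.82% of all 27025 genes and 8.94% of the other listed genes), Slc3a1 at -140 and Slc6a5 at -191 from the start site. Shares are of genes with a match in any of their windows of this length, and a gene with several annotated starts, such as Slc7a7 or Slc6a5, has more than 1 window. Some of these starts lie far from the gene start in GENCODE M21, by 14521 bases in Slc41a3 and 19775 in Slco2a1. The E-box CACGTG occurred in 1 (Slc41a3, 2.63% against 6.86% and 8.004%), and TGATGCAA, the C/EBP-ATF element of amino acid response genes, in 1 (Slc7a7, 2.63% against 0.918% and 0.832%). TATAAA occurred in 7 members (18.4% against 14.3% and 11.3%), 6 of them higher with Go6983, and within the printed Slc3a1 window it was found at -124, -20 and -18, counting both strands. GCGTG, the core of the xenobiotic response element and contained in longer sites, occurred in 13 members (34.2%, above the 30.9% of all genes and below the 37.4% of the other listed genes). No match was found for TGACGTCA, TCAAGGTCA or TTCCNGGAA in these windows. A match is only a run of letters, and its use by a factor was not tested.

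The level of a gene is given as the normalized count, which is the read count divided by a factor for the sequencing depth of its sample. Fold changes are the difference between the group means of log2(normalized count + 1), Go6983 minus NT, a scale on which changes of rarely sequenced genes come out too small. The reads in the listed genes ranged from 859777 to 1054236 per sample, and the total depth of the libraries is unknown. A gene was called higher or lower at a limma adjusted p below 0.05, with the adjustment over all 1577 genes.

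Of the 46 members, 34 were called higher and 12 lower with Go6983. Among all listed genes 98.5% were called, 68.8% higher and 29.7% lower, so the members' share of 73.9% higher lay near the background. The values of the NT and Go6983 samples did not overlap in 46 of 46 members, against 99.7% of the listed genes. Their median log2 fold change was 1.27, against 1.21 over all listed genes, and 8 members (17.4%) changed by at least 4-fold, against 21.8%. All of these 8 but Slc35d3 had 0 reads in at least 1 sample, so the size of their change depends on the added 1. With that limit, sizes of change in the solute carrier genes were close to those of the whole table.

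The count of members called was lower when 1 library was left out, as was the count over all listed genes. Each such fit has 1 sample in an arm and 1 residual degree of freedom, so its spread comes from the pair of samples in the other group and from the trend over genes, and the lone sample is assumed to vary like them. Fewer members were called higher without 1 Go6983 library than without 1 NT library, and the same held over all listed genes. In all 4 of these fits 18 members were called, namely Slc38a2, Slc7a7, Slc1a1, Slc15a1, Slc36a3, Slc27a2, Slc13a5, Slc16a9, Slc16a14, Slc9a2, Slc41a3, Slc11a1, Slc6a7, Slc35d3, Slco5a1, Slc5a11, Slc23a1 and Slc19a3. The other 28 missed the threshold in at least 1 of them, and they are named with their class. A lost call is not by itself a smaller change: Slc38a8 (log2 fold change 1.71) was at 1.80 and 1.62 without Go6983 replicate 1 and 2, Slc13a4 (1.03) at 1.02 and 1.05, and Slc52a3 (1.17) at 1.16 without Go6983 replicate 2. The largest move of a member's log2 fold change over these fits had a median of 0.213 and reached 1.58 in Slc13a2. Slc36a3 and Slc9a2 kept their calls with a group at 0 reads in both samples. Such a pair shows no spread, so a kept call does not mean that these genes were well measured. When the samples were instead scaled so that the listed genes centre on no change, 3 members were called higher and 12 lower, in place of 34 and 12. Over all listed genes, 176 were then called higher and 476 lower, in place of 1085 and 469. That scaling moves the Go6983 samples by -1.11 on the log2 scale relative to NT, since most listed genes were higher with Go6983.

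The table lists 11.9% of the 385 solute carrier genes annotated in GENCODE M21, against 5.47% of all 21951 protein-coding genes, given as shares with no test. Both totals count every annotated gene, expressed in these cells or not, so the shares among expressed genes are unknown. Members came from 29 of 50 families and from 9 of 10 substrate classes. Listed genes made up 8 of 48 amino acid and peptide carriers, 8 of 33 carriers of carboxylates and lipids and 5 of 24 carriers of vitamins, nucleosides and choline. The remaining classes had 10 of 62 (inorganic ions), 3 of 30 (metals and heme), 2 of 35 (neurotransmitters and osmolytes), 2 of 27 (nucleotide sugars), 5 of 45 (organic ions, urea and drugs) and 3 of 34 (sugars). None of the 47 mitochondrial carriers of the Slc25 family was listed. By family, Slc13 had 3 of its 5 genes listed and Slc16 3 of 14, all higher, and Slco had 3 of 14, 2 higher and Slco1b2 lower. No other family had more than 2. The counts by class are descriptions of few genes, to be read against the 68.8% called higher and 29.7% called lower in the whole table. When the listed genes were centred on no change, the members still called higher were Slc15a1, Slc36a3 and Slc6a7. Slc36a3 has 0 reads in both NT samples, which scaling leaves at 0, so this scaling could not bring its groups together.

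**Figure D1:**
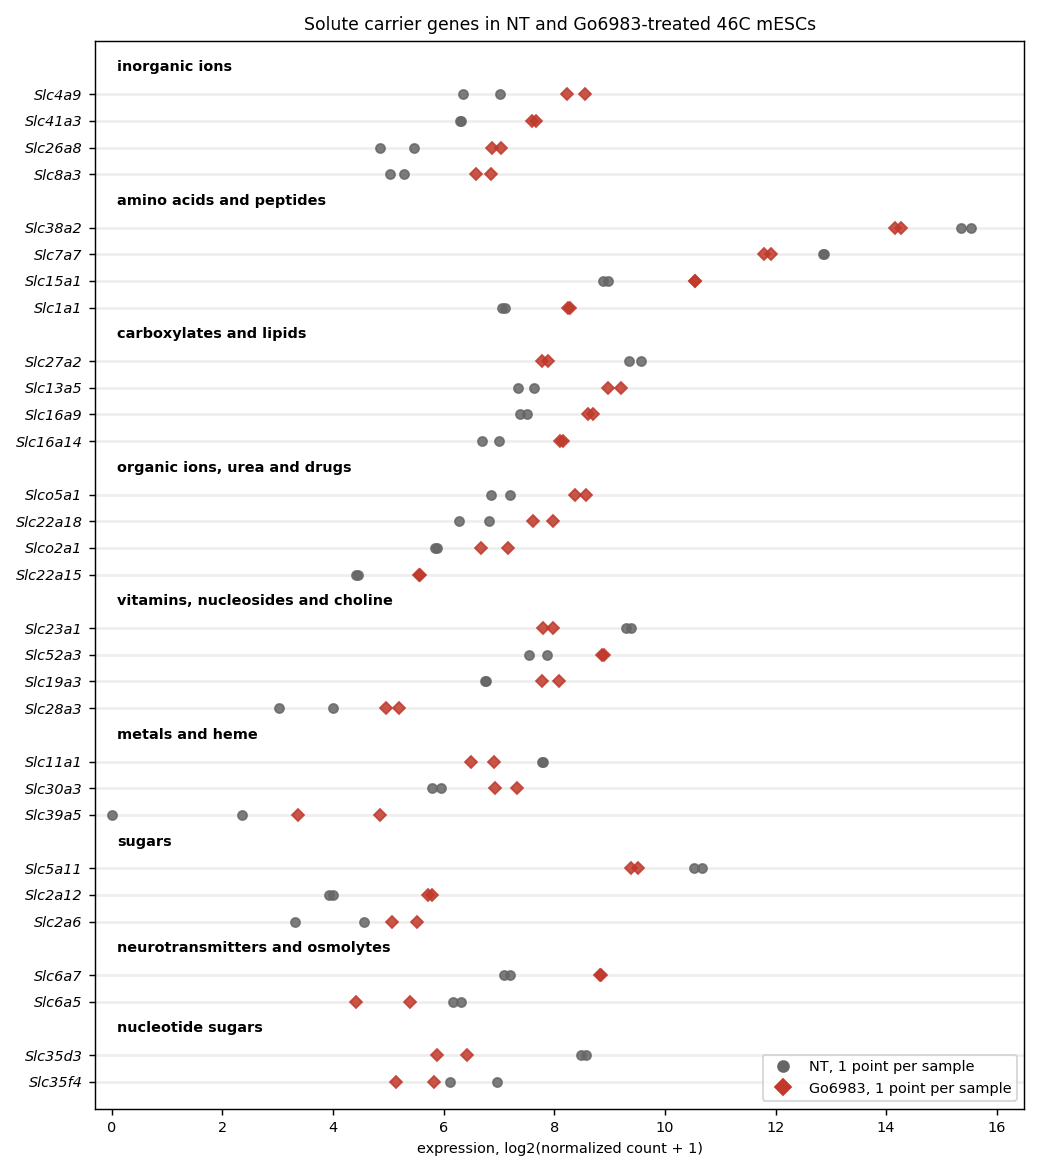
Expression of the 30 solute carrier genes whose sample values are printed, as log2(normalized count + 1) on the horizontal axis, by substrate class, with 1 point per sample (grey circles, NT; red diamonds, Go6983). NT and Go6983 points do not overlap for any gene shown, and Slc38a2 lies highest, between 14.2 and 15.5.

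Amino acid and peptide carriers held both the most abundant member and the most abundant one that rose. Of the 8 members in the class, 6 were called higher and 2 lower with Go6983. Slc38a2, which encodes the sodium-coupled neutral amino acid transporter SNAT2, was measured at 47204 and 41737 normalized counts in NT and 19845 and 18233 in Go6983. Both Go6983 samples were below both NT samples, and the log2 fold change was -1.22 ± 0.11 (SE) with a limma adjusted p of 0.000446. Slc7a7, the y+LAT1 chain that exchanges cationic for neutral amino acids, fell from 7466 and 7500.2 to 3854 and 3560.1 normalized counts (log2 fold change -1.01 ± 0.09 (SE), limma adjusted p = 0.000446). Among all 478 listed genes that were lower, Slc38a2 had the highest normalized count and Slc7a7 ranked 23rd.

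Slc15a1 encodes PEPT1, the proton-coupled carrier of di- and tripeptides, and rose. It had 502 and 472 normalized counts in NT and 1499 and 1486 in Go6983, a log2 fold change of 1.61 ± 0.10 (SE) with a limma adjusted p of 0.000388. Slc1a1, the sodium-dependent transporter of glutamate, aspartate and cysteine, was at 136 and 132 in NT and 303 and 309 in Go6983 (log2 fold change 1.19 ± 0.14 (SE), limma adjusted p = 0.000901). Both genes had replicates that differed far less than the groups did. Slc38a8, a glutamine transporter of the SNAT2 family, rose by 1.71 on the log2 scale, and Slc7a15, of the same family as Slc7a7, by 1.63.

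A pair of amino acid members was almost silent in NT. Slc3a1 encodes rBAT, the partner chain that carries the cystine transporter to the membrane, and had 0 and 3 reads in NT and 13 and 18 reads in Go6983. Slc36a3, of the proton-coupled amino acid transporter family, had 0 reads in both NT samples and 11 and 9 in Go6983. Against a floor of 3 reads per library this is at least 3.29-fold higher. Slc36a3os, an antisense RNA at the same locus that is no member, had 0 and 0 reads in NT and 13 and 7 in Go6983. The genes overlap in position but share no exonic bases. Without Go6983 replicate 1 or without Go6983 replicate 2, the limma adjusted p of Slc38a8 and Slc3a1 lay between 0.0514 and 0.151, and without NT replicate 1 or NT replicate 2 that of Slc7a15 was 0.0732 to 0.0753.

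Of 8 carriers of carboxylates and lipids, 7 were called higher and 1 lower, where 68.8% of all listed genes were called higher. Fewer were called higher without 1 Go6983 library, as over all listed genes. When the listed genes were centred on no change, 0 were called higher, against 176 of all 1577 listed genes. Slc13a5, the sodium-coupled citrate transporter of the plasma membrane, rose from 161 and 198 normalized counts in NT to 591 and 504 in Go6983, with a log2 fold change of 1.61 ± 0.17 (SE) and a limma adjusted p of 0.000547. Slc13a4, which carries sulfate, rose by 1.03 on the log2 scale. The dicarboxylate transporter gene Slc13a2 had 8 and 0 reads in NT and 26 and 35 in Go6983. All 3 listed genes of the Slc13 family were thus higher, although Slc13a4 was at -0.078 on the log2 scale when the listed genes were centred on no change.

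The monocarboxylate family Slc16 also had 3 members, all higher. Slc16a9, the carnitine-efflux member MCT9, was at 165 and 182 normalized counts in NT and 390.2 and 416 in Go6983 (log2 fold change 1.21 ± 0.14 (SE), limma adjusted p = 0.000769). The orphan Slc16a14 was at 127 and 102 in NT and 286 and 273 in Go6983 (log2 fold change 1.28 ± 0.18 (SE), limma adjusted p = 0.00143). Slc16a7 encodes MCT2, a high-affinity carrier of pyruvate and lactate, and rose by 1.13 on the log2 scale. Slc10a4, an orphan of the bile acid transporter family, had 0 and 5 reads in NT and 21 and 15 in Go6983.

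Slc27a2, which encodes the fatty acid transport protein and very long-chain acyl-CoA synthetase FATP2, was the single lower member of the class. It fell from 759 and 656 normalized counts in NT to 219 and 237 in Go6983, a log2 fold change of -1.63 ± 0.14 (SE) with a limma adjusted p of 0.000428. The call of Slc16a7 was lost without any 1 of the 4 libraries (adjusted p of 0.0609 to 0.168). Calls of Slc10a4, Slc13a2 and Slc13a4 were lost without Go6983 replicate 1 and without Go6983 replicate 2 (0.0740 to 0.227).

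Inorganic ion carriers formed the largest class, with 8 of 10 members higher and 2 lower. Slc4a9, an anion exchanger of the bicarbonate transporter family, was at 80.6 and 129 normalized counts in NT and 299 and 377 in Go6983 (log2 fold change 1.71 ± 0.27 (SE), limma adjusted p = 0.00229). Slc41a3, a magnesium carrier, was at 78.6 and 77.7 in NT and 192 and 203 in Go6983 (log2 fold change 1.33 ± 0.18 (SE), limma adjusted p = 0.0012). The groups were well apart for both, although the NT replicates of Slc4a9 themselves differed by 1.60-fold. Slc26a8, an anion transporter known from sperm, had 27.8 and 42.9 normalized counts in NT and 116 and 129.5 in Go6983. Slc8a3, the sodium/calcium exchanger NCX3, had 31.8 and 37.8 in NT and 95.2 and 115 in Go6983. Their log2 fold changes were 1.79 and 1.56.

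The other higher ion carriers were Slc41a2 (magnesium, log2 fold change 1.40), Slc12a3 (the thiazide-sensitive sodium chloride cotransporter, 1.39), Slc8a1 (the sodium/calcium exchanger NCX1, 1.33) and Slc4a1 (the band 3 anion exchanger of red cells, 1.25). Slc9a2, the sodium/proton exchanger NHE2, had 32 and 18 reads in NT and 0 in both Go6983 samples, which is at least 8.35-fold lower against a floor of 3 reads per library. Slc26a5, which encodes the outer hair cell motor protein prestin, was lower, with a log2 fold change of -1.77. Of the 10 members, Slc41a3 and Slc9a2 kept their calls in all 4 fits that left out a library, Slc9a2 with no spread between its Go6983 samples. Slc26a8, Slc4a9 and Slc8a3 lost theirs without Go6983 replicate 1 and without Go6983 replicate 2 (limma adjusted p of 0.0570 to 0.0852), and Slc26a5 and Slc4a1 without any 1 of the 4 (0.0563 to 0.166). Slc41a2 lost its call without each library but NT replicate 2 (0.145 to 0.266), Slc8a1 without each but Go6983 replicate 1 (0.0721 to 0.107) and Slc12a3 without each but NT replicate 1 (0.0595 to 0.105).

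Metal carriers were split, with 2 of 3 higher and 1 lower. Slc11a1, or NRAMP1, a divalent metal carrier of phagosomes, fell from 218 and 221 normalized counts in NT to 119 and 88.8 in Go6983 (log2 fold change -1.08 ± 0.20 (SE), limma adjusted p = 0.00455). Slc30a3, which encodes ZnT3 and loads zinc into vesicles, was at 60.7 and 54.2 in NT and 159.6 and 121 in Go6983, a log2 fold change of 1.26. Slc39a5, a zinc importer, was at 0 and 4.09 in NT and 9.34 and 27.8 in Go6983, with the Go6983 replicates 2.98-fold apart. The call of Slc30a3 was lost without Go6983 replicate 1 (limma adjusted p of 0.0709), and that of Slc39a5 without each library but NT replicate 2 (0.118 to 0.238).

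In the neurotransmitter and osmolyte class, the 2 members moved in opposite directions. Slc6a7, a high-affinity proline transporter known from brain, rose from 146 and 136 normalized counts in NT to 451 and 457 in Go6983, with a log2 fold change of 1.68 ± 0.14 (SE) and a limma adjusted p of 0.000428. Slc6a5, the glycine transporter GlyT2, was at 70.6 and 78.7 in NT and 41.1 and 20.3 in Go6983 (log2 fold change -1.33). Slc6a7 replicates were nearly equal within each group, whereas the Go6983 replicates of Slc6a5 differed by 2.02-fold, and its call was lost without any 1 of the 4 libraries (limma adjusted p of 0.0514 to 0.144).

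Both members of the nucleotide sugar transporter family were lower. Slc35d3, an orphan member needed for platelet dense granules, had 382 and 357 normalized counts in NT and 84.9 and 57.8 in Go6983. The log2 fold change was -2.38 ± 0.23 (SE) with a limma adjusted p of 0.000484, and the linear ratio of the means was 5.17-fold lower. It was the single member that both reached 50 normalized counts and changed by at least 4-fold. Slc35f4 was at 68.6 and 125 in NT and 56.01 and 34.3 in Go6983, a log2 fold change of -1.06 ± 0.40 (SE) (limma adjusted p = 0.0427). Its lower NT value was close to its higher Go6983 value, and the call was lost without any 1 of the 4 libraries (adjusted p of 0.0624 to 0.308). It was also lost with the replicate number as a block (0.0770), in limma without trend (0.0667) and in limma-voom (0.0545).

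Carriers of organic ions and drugs were higher in 4 of 5 members. Slco5a1, an orphan of the organic anion transporter family, rose from 145 and 114 normalized counts in NT to 330.5 and 379 in Go6983 (log2 fold change 1.45 ± 0.18 (SE), limma adjusted p = 0.00101). Slc22a18, an imprinted gene expressed from the maternal allele, was at 76.6 and 112 in NT and 252 and 196 in Go6983. Slco2a1, the prostaglandin transporter, was at 56.7 and 58.2 in NT and 143 and 102 in Go6983, and Slc22a15 at 20.9 and 20.4 in NT and 46.7 and 46.03 in Go6983. Log2 fold changes of these genes were 1.25, 1.06 and 1.13, with Slco2a1 at -0.053 when the listed genes were centred on no change. Slco1b2, the organic anion carrier of hepatocytes, fell by 1.65 on the log2 scale. Slc22a15 and Slco2a1 lost their calls without any 1 of the 4 libraries (limma adjusted p of 0.0503 to 0.112), Slc22a18 without Go6983 replicate 1 and without Go6983 replicate 2 (0.0743 to 0.102) and Slco1b2 without each but Go6983 replicate 2 (0.0645 to 0.0915).

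Sugar carriers comprised 2 higher members of the facilitative glucose transporter family and 1 lower sodium-coupled gene. Slc5a11, the sodium/myo-inositol transporter SMIT2, fell from 1632 and 1471 normalized counts in NT to 730.0 and 668 in Go6983 (log2 fold change -1.15 ± 0.11 (SE), limma adjusted p = 0.000488). Slc2a12, or GLUT12, was at 14.9 and 14.3 in NT and 54.1 and 51.4 in Go6983, a log2 fold change of 1.78 ± 0.32 (SE). Slc2a6, or GLUT6, was at 8.95 and 22.5 in NT and 32.7 and 44.96 in Go6983, a log2 fold change of 1.36 ± 0.52 (SE). The call of Slc2a12 was lost without Go6983 replicate 1 and without Go6983 replicate 2 (limma adjusted p of 0.0613 to 0.0624) and that of Slc2a6 without each library but NT replicate 2 (0.183 to 0.277) and in limma without trend (0.0526).

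Of 5 vitamin and nucleoside carriers, 4 were called higher and 1 lower, where 68.8% of all listed genes were called higher. Fewer were called higher without 1 Go6983 library, as over all listed genes. When the listed genes were centred on no change, 0 were called higher, against 176 of all 1577 listed genes. Slc23a1, the sodium-coupled ascorbate (vitamin C) transporter SVCT1, was the one that fell, from 629.5 and 669 normalized counts in NT to 250.2 and 220.5 in Go6983 (log2 fold change -1.46 ± 0.13 (SE), limma adjusted p = 0.000446). Ascorbate is a cofactor of the TET enzymes that oxidize 5-methylcytosine. Slc23a3, an orphan of the same family, had 0 and 2 reads in NT and 13 and 9 in Go6983.

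Slc52a3, which imports riboflavin (vitamin B2), rose from 186 and 232 to 464 and 476 normalized counts (log2 fold change 1.17 ± 0.16 (SE), limma adjusted p = 0.00125). Slc19a3, which imports thiamine (vitamin B1), was at 106 and 108 in NT and 218 and 272 in Go6983 (log2 fold change 1.17 ± 0.18 (SE), limma adjusted p = 0.00228). Slc28a3, the concentrative nucleoside transporter CNT3, was at 14.9 and 7.15 in NT and 35.5 and 29.97 in Go6983. When the listed genes were centred on no change, Slc52a3 was at 0.055 and Slc19a3 at 0.056 on the log2 scale. The call of Slc52a3 was lost without Go6983 replicate 2 (limma adjusted p of 0.0507), that of Slc23a3 without Go6983 replicate 1 and without Go6983 replicate 2 (0.102 to 0.113), and that of Slc28a3 without each library but NT replicate 1 (0.0783 to 0.149).

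**Figure D2:**
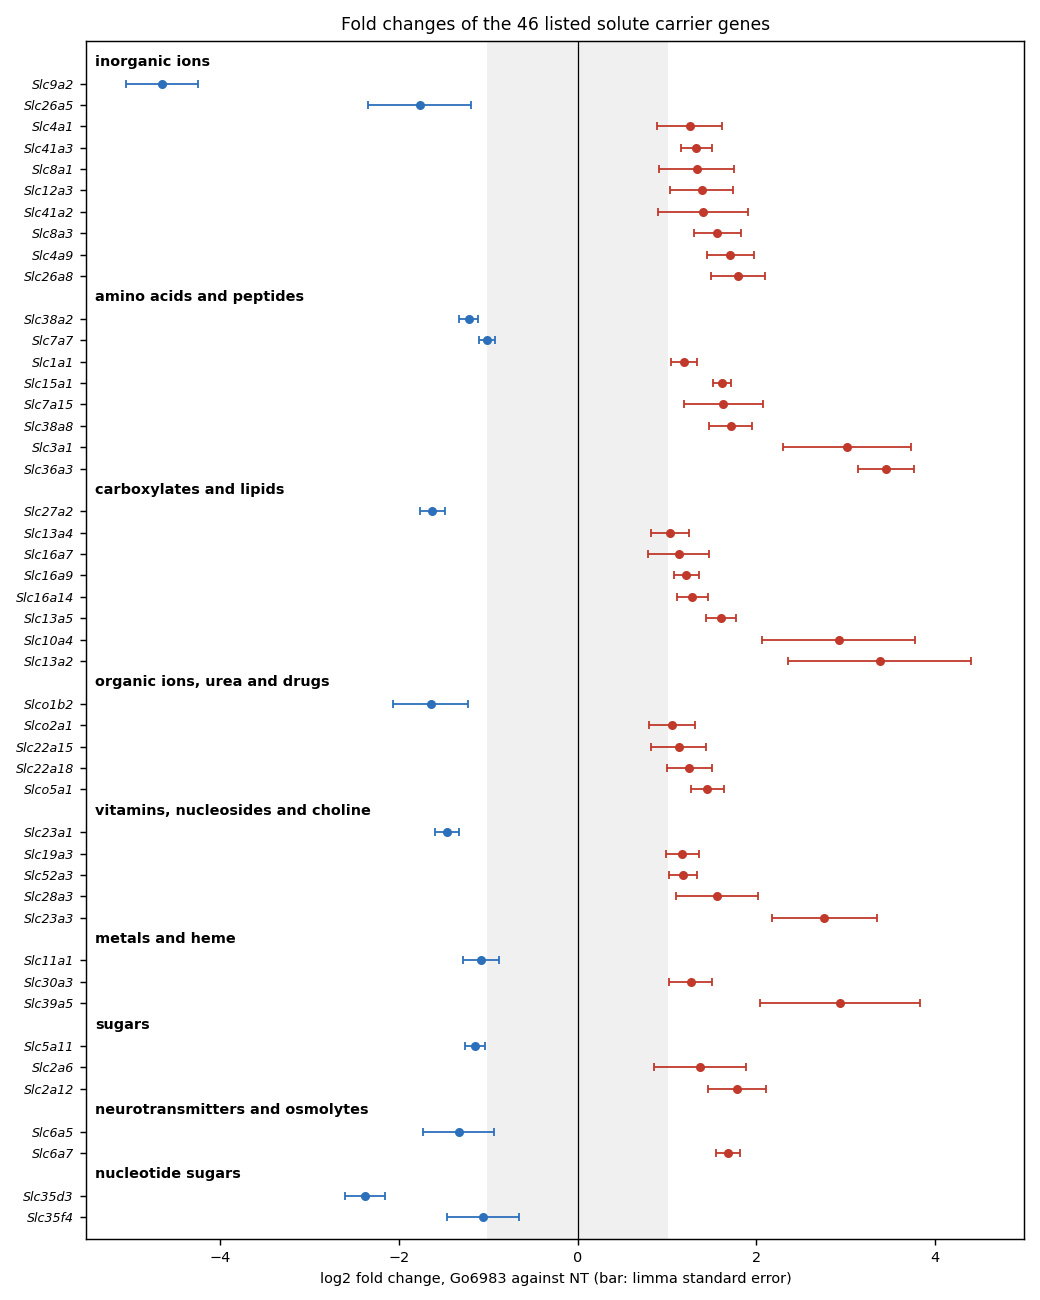
Log2 fold change of each of the 46 solute carrier genes, Go6983 against NT (horizontal axis), by substrate class; points are limma estimates, bars the standard error, red higher and blue lower. The grey band from -1 to 1 is empty because genes in it are not in the deposited table. The estimates run from -4.66 for Slc9a2 to 3.45 for Slc36a3, both of which have a group at 0 reads, so that their fitted values are no bound.

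Levels of the lower and higher members are compared as a description, with no test. The mean normalized count in the group where a gene was higher had a median of 294 for the 12 lower members and 114 for the 34 higher members, and per kb of exon of 99.8 and 16.2. For all listed genes the same medians per kb were 48.9 and 28.5. Per kb of exon, Slc38a2 had a mean level of 5032 normalized counts in NT and 2154 in Go6983, Slc7a7 2257 and 1118, and Slc5a11 563 and 253. The highest of the members that rose was Slc15a1, at 99.7 and 306. By the mean of its higher group Slc8a1 was the lowest member, at 0.456 in NT and 1.27 in Go6983 per kb.

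**Figure D3:**
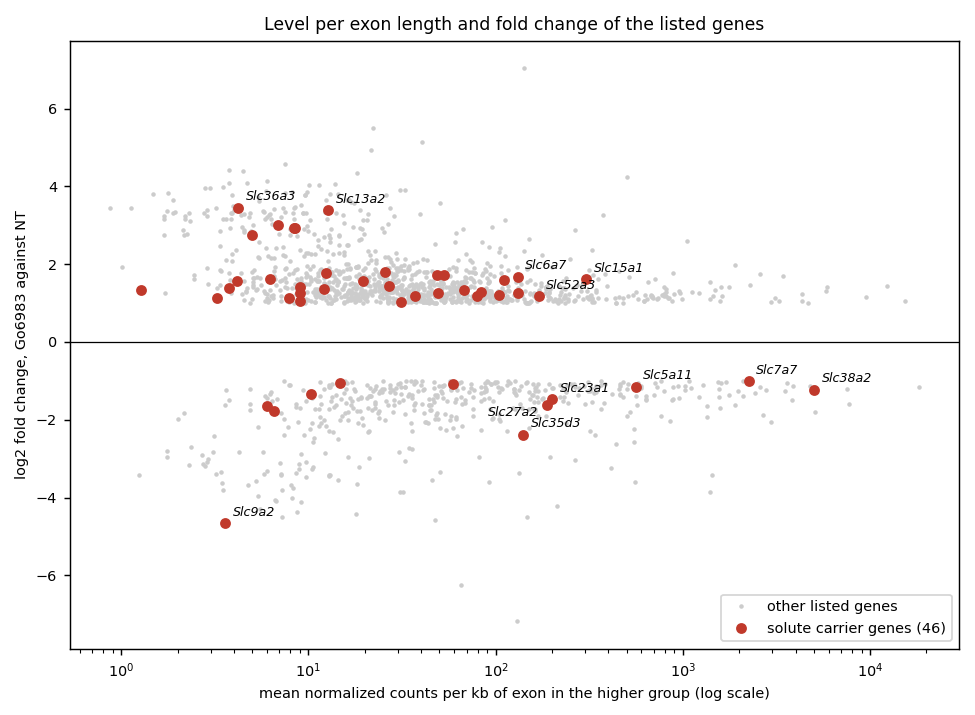
Mean normalized counts per kb of exon in the higher group (horizontal axis, log scale) against the log2 fold change, Go6983 against NT (vertical axis), for the listed genes, with the 46 solute carrier genes in red. Slc38a2 lies at 5032 and Slc7a7 at 2257 normalized counts per kb, to the right of all other members.

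Although most members were higher, the normalized counts summed over the 46 genes were lower with Go6983. They summed to 60870 and 55403 in NT and 31837 and 29828 in Go6983. As a share of the reads in the listed genes this was 6.58% and 6.31% in NT and 3.24% and 3.004% in Go6983. Slc38a2 alone gave 77.5% and 75.3% of the sum in NT and 62.3% and 61.1% in Go6983. Without it the sums were 13666 in both NT samples and 11992 and 11595 in Go6983. Of these, Slc7a7 gave 7466 and 7500.2 in NT and 3854 and 3560.1 in Go6983. With Slc7a7 set aside as well, the sum of the remaining members was higher in both Go6983 samples than in both NT samples.

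Members were also grouped by the ion to which transport is coupled. Of 15 members taken as sodium-coupled, a grouping made after the values were seen, 10 were higher and 5 lower, with a median log2 fold change of 1.33. The other 31 members had 24 higher and 7 lower, with a median of 1.26. The lower sodium-coupled members were Slc38a2, Slc5a11, Slc23a1, Slc6a5 and Slc9a2. The exchanger gene Slc7a7, which was also lower, was counted with the other members.

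Counting error limits the rarest members most. In their higher group, 29 members reached 50 normalized counts (63.0%, against 66.2% of listed genes), and 4 members, Slc38a2, Slc7a7, Slc5a11 and Slc15a1, reached 1000. A 0 in at least 1 sample occurred in 7 members, which are Slc3a1, Slc36a3, Slc10a4, Slc13a2, Slc9a2, Slc39a5 and Slc23a3. A library with 0 reads allows up to 3 reads at its depth, so these genes were not detected there rather than absent.

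Reads of overlapping genes on opposite strands may not be separable, since the sources used here do not state whether the libraries keep strand. Exons of 13 members overlap an exon of a gene on the other strand in GENCODE M21, and none of those genes is listed. The overlap covers 31.9% of the exonic bases of Slc1a1 (4430402I18Rik), 26.5% of Slc3a1 (Prepl) and 26.2% of Slc13a2 (Slc13a2os). It is 12.7% in Slc16a9 (Gm7097), 11.2% in Slc27a2 (Gm26697) and 6.998% in Slc7a7 (Oxa1l). Values of these members are uncertain for this reason.

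Position on the chromosome was compared with the other listed genes. Another listed gene lay within 100 kb of 11 members (23.9%, against 33.3% of all listed genes), in 12 pairs, of which 7 moved in the same direction. Since 69.7% of all listed genes had a log2 fold change above 0, pairs would often share a direction whatever their position. A link between position and direction was not tested. Slc6a7 lies 4.64 kb from Cdx1, a homeobox gene, which was at 51.7 and 83.8 normalized counts in NT and 536 and 769.6 in Go6983, so both were higher. Slco5a1 lies 5.36 kb from Sulf1, which encodes a heparan sulfate sulfatase, and Slc22a18 lies 12.7 kb from Cdkn1c, an imprinted inhibitor of the cell cycle. Sulf1 was at 4039.8 and 3508 in NT and 1582 and 1434 in Go6983 and Cdkn1c at 3922 and 3834 in NT and 1462 and 1089.7 in Go6983, both lower where the adjacent member was higher. Slc35d3 lies 87.9 kb from Il20ra, at 28.8 and 13.3 in NT and 0 and 0 in Go6983, both lower.

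Genes that work with solute carriers were read from 7 lists holding 156 genes, of which 17 are in the table. Near the 68.8% called higher and 29.7% called lower of all listed genes, 12 of the 17 were called higher and 5 lower. Fewer of them were called higher without 1 Go6983 library, as over all listed genes. Of 23 partner and accessory proteins, Txnip, an arrestin that limits glucose uptake, rose from 5869.7 and 5581 to 13808 and 13064 normalized counts, and Pdzk1, a scaffold of transporters, rose by 1.12 on the log2 scale. Emb, the chain that escorts monocarboxylate carriers to the membrane, fell from 8884 and 8891 to 4416 and 3869, while the 3 listed Slc16 members rose. Hk1, the hexokinase that phosphorylates glucose, was the only listed gene of 27 glycolysis and lactate genes, at 2300.3 and 2277 in NT and 4247 and 5617 in Go6983.

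Ion pumps set the gradients that many members use, and 4 of 37 were listed, with no sample above 72.8 normalized counts. The sodium pump regulator Fxyd2, the calcium pump Atp2a1 and the proton pump subunit Atp6v1c2 were higher, by 1.37 to 1.89 on the log2 scale. Atp1a4, a sodium pump chain of sperm, was lower, at 34.8 and 24.5 in NT and 4.67 and 0 in Go6983. Carbonic anhydrases, which make bicarbonate and protons for several ion carriers, had 4 of 16 genes listed, 3 of them lower. Car2 was at 19162 and 18339.6 in NT and 6456 and 6011 in Go6983 and Car4 at 914 and 813 in NT and 152 and 125 in Go6983, Car3 fell by 1.19 on the log2 scale, and Car5a rose by 1.44. The glycerol and water channel Aqp3 rose from 823 and 923 to 3211 and 3722, and Aqp6 rose by 1.27. The list of 22 genes of the amino acid response through ATF4 holds none of the 46 members, Slc38a2 included, so it does not cover the solute carriers. Of those 22, Vldlr was listed (log2 fold change 1.48), and of 19 iron and heme genes, Heph (1.11) and Cybrd1 (1.06).

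**Figure D4:**
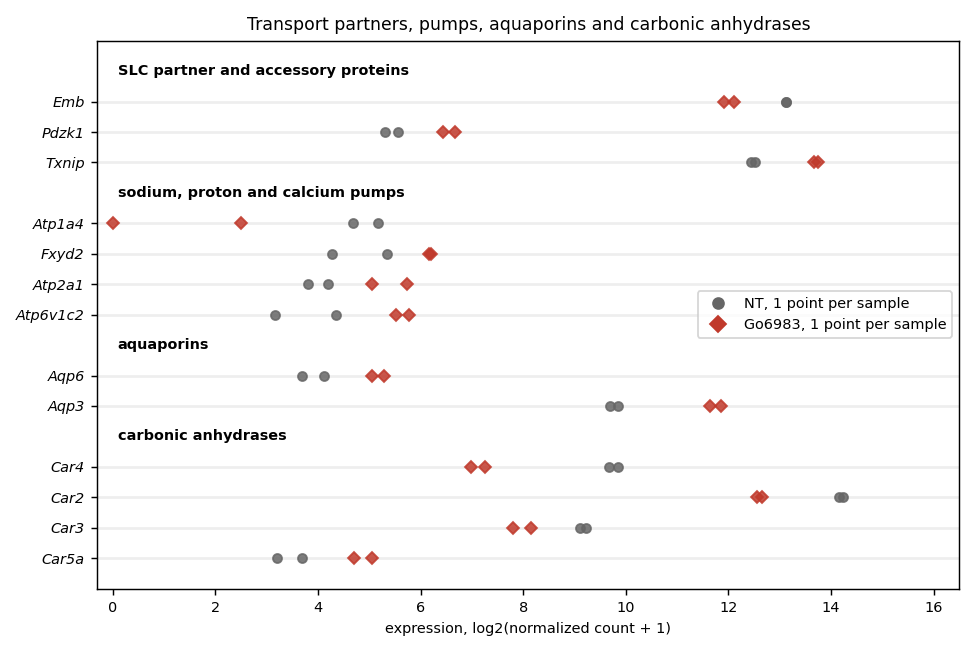
Expression of the listed transport partners, pumps, aquaporins and carbonic anhydrases as log2(normalized count + 1) on the horizontal axis, with 1 point per sample (grey circles, NT; red diamonds, Go6983). Car2 is the most abundant, at 19162 and 18340 normalized counts in NT against 6456 and 6011 in Go6983, and Aqp3 lies higher in both Go6983 samples.

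Markers of mESCs and of other cell types were read beside the members. Of 16 pluripotency markers 5 were listed, with Nanog, Klf4 and Tfcp2l1 higher and Utf1 and Dnmt3l lower, and Nanog was present in every sample at 15992 and 16902 normalized counts in NT and 33595 and 34977 in Go6983. None of 17 endoderm markers was listed. Trophoblast markers had 3 of 14 listed (Tead4, Tfap2c and Esx1, all higher), with sums of 1962 and 1859 in NT and 4767 and 5161 in Go6983. Neural markers had 2 of 14 listed (Neurod1 and Pax6, both lower), with sums of 1538 and 1328 against 432 and 349, nearly all of them Neurod1, and mesoderm markers 2 of 12 (Lefty1 and Kdr, both lower), with sums of 8270 and 9555 against 4245 and 3770, nearly all of them Lefty1. Fibroblast markers had 2 of 12 listed (Fn1 and Col1a2, both higher), with sums of 52273 and 47760 against 109338 and 111903, nearly all of them Fn1. Col1a2 itself was at 31.8 and 40.9 in NT and 78.4 and 82.4 in Go6983. Their part in the results on solute carriers was not tested, and in bulk samples fewer cells of a type and less RNA per cell cannot be told apart.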

How the data were processed

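RNA-sequencing was analysed from 2 NT and 2 Go6983-treated samples of 46C mESCs, grouped by their titles. The deposited table holds log2 expression values of the 4 samples, beside the authors' own group means, fold changes, p-values and adjusted values. The authors' p-values served only to see how the table was selected, and their fold changes were not used. Bowtie 0.12.2 and mm9 are named in the submitters' processing notes. Of the counter, annotation and normalization tool, each is not given in the sources used here. Undoing the log2 and an added 1 gave whole reads times 1 factor per sample for 100% of values within 0.05. The factors corresponded to size factors of 0.934 to 1.07.

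Gene IDs were matched to GENCODE M21 on GRCm38 (1572 of 1577), from which symbols, positions and exon lengths were taken. Coordinates are thus not of the authors' build. Groups were compared on the deposited log2 values with limma 3.58.1 in R 4.3.3 (lmFit, eBayes with trend), with Benjamini-Hochberg adjustment over 1577 genes, and the code was tested on simulated data. Alternatives were a pseudocount of 0.1, a minimum mean of 10 normalized counts, median ratio scaling over the listed genes, leaving out each sample, blocking on the replicate number, limma without trend, limma-voom on recovered reads, and an unadjusted p with 2-fold. All members are named, and 1 gene was taken off the pump list and is not reported here. Sample values are printed for the 4 most abundant members of each class, for members with at least 50 normalized counts and a 4-fold change, and as reads for members with a 0. Members, classes and lists were chosen with earlier results of these data known, and the reads of members with a 0 and the sodium grouping were added after values were seen.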

Additional observations from a re-analysis of the deposited data

How the results depend on the processing

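Under the 10 alternatives other than median ratio scaling, every member kept the sign of its log2 fold change, and 18 members kept their calls in each of those 10 that tested them. Median ratio scaling over the listed genes gave 3 members and 1 gene of the related lists called higher, against 34 and 12. Over all listed genes it gave 176 called higher, against 1085. It reversed Slc13a4 (-0.078) and Slco2a1 (-0.053), and it centres a selected list by construction. Leaving out 1 sample gave 12 to 26 members called higher and 3 to 8 genes of the related lists, with fewer samples in the fit. A pseudocount of 0.1 gave 29 higher and 11 lower members and lost the calls of Slc10a4, Slc13a2, Slc41a2, Slc39a5, Slc35f4 and Slc2a6. The samples of a number share only that number. Across the 1577 listed genes, the difference between the NT replicates and that between the Go6983 replicates had a correlation of 0.032. With the replicate number as a block 34 members were higher and 11 lower, with Slc35f4 not called (limma adjusted p = 0.0770). Slc35f4 was also not called in limma-voom and, with Slc2a6, in limma without trend. With 2 samples a group and an unknown total depth, the spread rests on few values, and counting error is largest for the members with few reads.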
